A study of Drosophila melanogaster with 3 samples.

Results

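kirre and rst are neighbouring genes on the X chromosome of Drosophila melanogaster that encode related adhesion proteins, and the peaks of the transcription factor Sox14 across them are described here. They were taken from the Ensembl annotation as 2 of 18164 genes on 6 chromosome arms. kirre (FBgn0028369) covered 2740384 to 3134532 on X, 394 kb on the plus strand, with 7 transcripts from 6 transcription start sites (TSSs). rst (FBgn0003285) covered 2950399 to 2973834, 23.4 kb on the minus strand, with 2 transcripts from 1 TSS, and lay wholly inside the span of kirre. The locus was these spans plus 10 kb on each side, 2730384 to 3144532 on build dm6, with every peak summit in it. It held 32 of the 9316 peaks in the authors' optimal list and 134 of the 30000 in their relaxed list for pooled replicates. The locus was selected on these peaks, so its counts are descriptions without a test.

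The data came from chromatin immunoprecipitation and sequencing (ChIP-seq) of flies carrying Sox14 with GFP fused to its C terminus. Sox14 is a protein of the Sox family whose gene responds to the moulting hormone ecdysone. Chromatin was recovered with an anti-GFP antibody, per the sample descriptions, although the antibody label itself names Sox14. There was 1 group of 3 biological replicates of whole white prepupae, the stage at which metamorphosis starts. Males and females were pooled and whole animals were used, so a peak is an average over all tissues and cannot be placed in muscle, eye or any other tissue. Age is given as unknown, the other alleles of the strain are not given in the labels, and no control library was analysed here. Relaxed lists of 30000 peaks, made for every replicate, include background by design, and the optimal list was chosen by the authors for agreement between the same replicates. Signal is the value of the authors' peak caller. Its scale differs between lists, so it served here only for ranking inside a list, with rank 1 the highest. Sequencing depth is unknown. Intervals given with shares are 95% Wilson intervals for counting error alone.

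Kirre and Rst are transmembrane proteins of the immunoglobulin superfamily. On founder myoblasts they bind Sns and Hbs on fusion-competent myoblasts, and the contact starts the fusion that makes muscle fibres. The same family joins the filtration slits of nephrocytes and sorts the cells between ommatidia of the pupal eye, and rst is named for the rough eye of its mutants.

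The sequences at 8 optimal summits are shown with 50 bp to each side, 5′ to 3′ on the plus strand of build dm6, from the RefSeq copy of Release 6. They were picked to show the strongest summits of the locus, the one nearest to the rst start and windows with a Sox word. Capitals mark the Sox words ACAAT and ACAAAG, or their reverse complements ATTGT and CTTTGT.

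strongest of the locus chrX:3053434-3053534: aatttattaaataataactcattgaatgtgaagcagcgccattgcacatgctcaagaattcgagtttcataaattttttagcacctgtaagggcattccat
next strongest chrX:3046130-3046230: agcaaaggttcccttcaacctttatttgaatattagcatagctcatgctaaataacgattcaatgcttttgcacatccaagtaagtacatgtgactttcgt
close to a Syx4 start chrX:2744180-2744280: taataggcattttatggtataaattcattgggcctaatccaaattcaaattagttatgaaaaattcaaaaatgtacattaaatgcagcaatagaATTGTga
intron of CG32795 chrX:2786715-2786815: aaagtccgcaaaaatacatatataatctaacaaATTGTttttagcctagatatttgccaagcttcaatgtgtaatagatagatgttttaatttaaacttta
with a word on each strand chrX:3041166-3041266: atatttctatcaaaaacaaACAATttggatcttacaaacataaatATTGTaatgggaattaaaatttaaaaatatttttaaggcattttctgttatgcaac
nearest to the rst start chrX:2978230-2978330: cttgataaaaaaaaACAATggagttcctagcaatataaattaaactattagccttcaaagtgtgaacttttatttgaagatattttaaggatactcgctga
word closest to its summit chrX:2907234-2907334: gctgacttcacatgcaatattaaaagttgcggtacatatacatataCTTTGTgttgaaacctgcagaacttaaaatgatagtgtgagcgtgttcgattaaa
nearest to CG4116 chrX:3068483-3068583: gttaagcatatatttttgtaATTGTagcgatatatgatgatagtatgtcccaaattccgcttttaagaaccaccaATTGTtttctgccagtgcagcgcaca

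Of these 8 windows, the strongest pair of the locus held neither word, and a pair of windows held ACAAT 2 times. In the window at 2907284 the centre of ACAAAG lay 1.5 bp from the summit, in an intron of kirre and with an optimal rank of 8458. A word is a string of letters in the window and was not taken as a binding site.

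The optimal peaks of the locus lay in introns of kirre and at starts of neighbouring genes, and none was at a start of kirre or rst. Of the 32 summits, 31 lay within the span of kirre and 0 within that of rst. Relaxed summits of the pooled list numbered 127 in kirre and 8 in rst. In replicates 1, 2 and 3, kirre held 113, 108 and 111 relaxed summits, and rst held 9, 8 and 6. The span of rst would hold 1.63 optimal summits at the mean density of the 6 arms, so the 0 found there is little below what its length gives. With 10 kb on each side of rst there were 2 optimal summits and 15 relaxed ones. These were the CG3603 promoter summit on its 3′ side and the summit at 2978280 on its 5′ side.

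**Figure D1:**
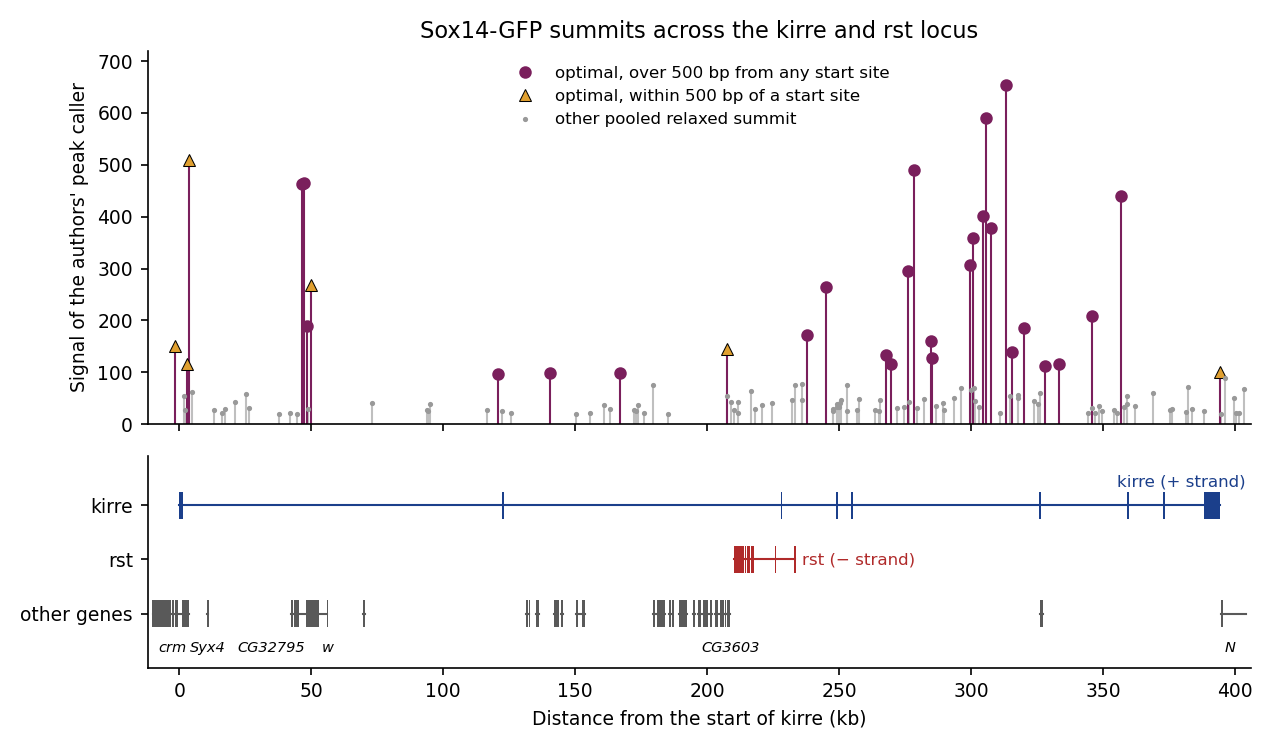
Signal of the authors' peak caller (no unit) at each of the 134 pooled relaxed summits of the locus against distance from the start of kirre in kb, above the exons of kirre, rst and the other genes. Purple circles and gold triangles are the 32 optimal summits, and grey points are the other 102. The strongest, with signals of 653 and 590, stand in the 3′ part of kirre, and the span of rst holds grey points only.

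At the TSSs of kirre the nearest optimal summits were kilobases away. From the 5′ end, the distances of the 6 TSSs to the nearest optimal summit were 1508, 1929, 3657, 2326, 2358 and 5891 bp. The summit nearest the first pair, at 2738876, was 103 bp from a start of crm, a chromatin protein of the Polycomb group, which is transcribed away from kirre. Relaxed summits lay closer to some starts. The TSSs of kirre-RC and kirre-RD, 3099550 and 3099582, had a pooled summit 25 and 57 bp away that ranked 18606. In replicates 1, 2 and 3 the nearest summit to the first of these TSSs was 241, 9 and 17 bp away and ranked 19259, 13570 and 25575. All of these ranks lay far below the 9316th place at which the optimal list ended.

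The single TSS of rst, at 2973834, had a relaxed summit almost on it. The pooled summit at 2973826 was 8 bp away, with a signal of 74.6 and rank 11066. Its q value in the pooled list was under 0.01 (−log10 q of 2.85), as for 34.3% of pooled relaxed peaks in the locus and 45.6% of all. In replicates 1, 2 and 3 a summit stood 43, 14 and 37 bp from the TSS and ranked 12923, 10954 and 11508. Every replicate thus had a peak at the rst start, and in every replicate it fell short of the best 9316. The nearest optimal summit to that TSS was 4446 bp upstream, at 2978280 in an intron of kirre. It had a signal of 171 and ranked 4759, 6559 and 4001 in replicates 1, 2 and 3, inside the best 9316 of each.

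The other relaxed summits of rst were weaker than the one at its start. Of the 8 in its span, the next highest in signal was at 2956894, in an intron, with a signal of 63.8 and ranks of 14808, 14200 and 16515 in replicates 1, 2 and 3. An intronic summit at 2972342, 1492 bp from the TSS, had a signal of 45.6 and ranks of 27016, 19915 and 14599. Those 3 were the only ones of the 8 matched in every replicate. The remaining 5, with pooled ranks between 17527 and 28680, each lacked a match within 100 bp in at least 1 replicate. A pair of these, at 2951942 and 2952146, lay in the 3′ UTR of rst.

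Optimal summits within 500 bp of a TSS belonged to other genes. There were 6 such summits among 32, or 18.8% (8.89 to 35.3), against 43.8% of all optimal summits. The other 26, or 81.2% (64.7 to 91.1), were intronic, against 39.1% of all optimal summits. The median distance to the nearest TSS of any gene was 9342 bp in the locus and 768 bp over the whole optimal list. Since kirre takes up nearly all of the locus, the share in introns follows in part from the choice of a long gene.

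The strongest promoter summit was that of Syx4, a syntaxin of membrane traffic whose gene overlaps the 5′ end of kirre on the opposite strand. It stood at 2744230, 154 bp from a Syx4 start, with a signal of 509, and ranked 673, 739 and 799 in replicates 1, 2 and 3. A weaker Syx4 summit at 2743283 was 325 bp from its other start and ranked 5735, 10172 and 8286. The crm summit at 2738876 ranked 3023, 6401 and 9857, spread over a wide part of the lists.

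CG32795 lies inside kirre next to w, the gene of the ABC transporter that carries eye pigment precursors. Its summit at 2790305 was 262 bp from a CG32795 start, had a signal of 268 and ranked 1781, 2926 and 1877 in replicates 1, 2 and 3. That summit was also 294 bp from the 3′ end of w, which held no relaxed summit in its span. CG32795 itself held 4 optimal summits, the others in its body at 2786765, 2787479 and 2788814. The first of these ranked 769, 1190 and 717. The next ranked 641, 1143 and 922, and the pair had signals of 463 and 465. Both lie in an intron shared by kirre and CG32795, and a peak there cannot be given to either gene from its position.

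At CG3603 the promoter summit at 2947791, 243 bp from the start, was the only one of the 32 not matched within 100 bp in every relaxed list. It ranked 12824 and 5119 in replicates 1 and 2, and replicate 3 gave no match. Another pooled summit of that promoter, at 2947994, was outside the optimal list and ranked 3641 in replicate 3. The N summit at 3134530, the last of the locus, lay in the 3′ end of kirre and 340 bp from the start of N, the Notch receptor. N starts 338 bp after the end of kirre. That summit had a signal of 99.8 and ranked 7361, 10106 and 7997, so it was a weak peak in every replicate.

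Inside kirre 22 genes are nested, 21 of them protein-coding, rst, w, CG32795 and CG3603 among them. An optimal summit in the span or within 500 bp of a start was found for 2 of the 22, CG32795 and CG3603. That is 2 of the 21 protein-coding ones, or 9.52% (2.65 to 28.9), against 34.1% of all protein-coding genes. The nested genes are short, with a median of 1.18 kb against 2.17 kb. Among those under 2 kb, 1 of 15 had one, or 6.67% (1.19 to 29.8), against 19.9% of all protein-coding genes of that length, which the interval includes. Any pooled relaxed summit in the span was found for 3, namely CG32795, CG3588 and rst, or 14.3% (4.98 to 34.6) of the 21 protein-coding ones, against 31.3% of all protein-coding genes. The other 19, w, CG3603, CG12498, CG14416, CG14417, CG14418, CG14419, CG3526, CG14424, CG32793, CG3592, CG3598, CG14420, CG14421, CG14422, CG14423, CG17959, CG4116 and the noncoding lncRNA:CR43494, held none there. Of the protein-coding ones under 2 kb, 0 of 15 held a pooled relaxed summit in the span, or 0% (0 to 20.4). Over all protein-coding genes of that length the share was 10.5%, which the interval includes. CG4116 had an optimal summit 971 bp from a start, at 3068533, which ranked 9915, 7196 and 7123 in replicates 1, 2 and 3. Of the 5 annotated transposable elements in the locus, 0 held an optimal summit.

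Along kirre the summits were unevenly spread. Annotated exons of all its transcripts were joined, and 8 stretches of over 5 kb between them were compared over each replicate's 9316 highest peaks. The 70.6 kb stretch from 2995489 to 3066110, in the 3′ part of the gene, held 14, 14 and 13 such peaks in replicates 1, 2 and 3. That is 19.8, 19.8 and 18.4 per 100 kb, a mean of 19.4 ± 0.818 (SD, n = 3), against 6.96 per 100 kb over the 6 arms. Every replicate was well above that genome level in this stretch. It held 14 optimal summits, 2.85 times the genome density.

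The 33 kb stretch that follows held 2, 3 and 4 of the highest peaks in replicates 1, 2 and 3, or 6.05, 9.08 and 12.1 per 100 kb. Replicate 1 was below the genome level there and the others above it. The 122 kb stretch at the 5′ end held 7, 5 and 7, or 5.76, 4.11 and 5.76 per 100 kb. The 105 kb stretch after it, which holds most of rst and of the nested genes, held 4, 3 and 2, or 3.79, 2.84 and 1.9 per 100 kb. All 3 replicates were below the genome level in both of these. The 20.5 kb stretch that contains the rst start held 3, 2 and 2, or 14.7, 9.77 and 9.77 per 100 kb. The 5.58 kb stretch before the dense one held 1, 0 and 0, or 17.9, 0 and 0 per 100 kb. Nearest the 3′ end, the 12.8 kb stretch held 1, 0 and 0, or 7.78, 0 and 0 per 100 kb, and the 15.4 kb stretch held 0 in every replicate. A single peak of replicate 1 put the first pair above the genome level, and all 3 had 0 optimal summits. The stretches were chosen by exons and not by peaks, but the number of peaks in the shorter ones is too small to rank them.

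**Figure D2:**
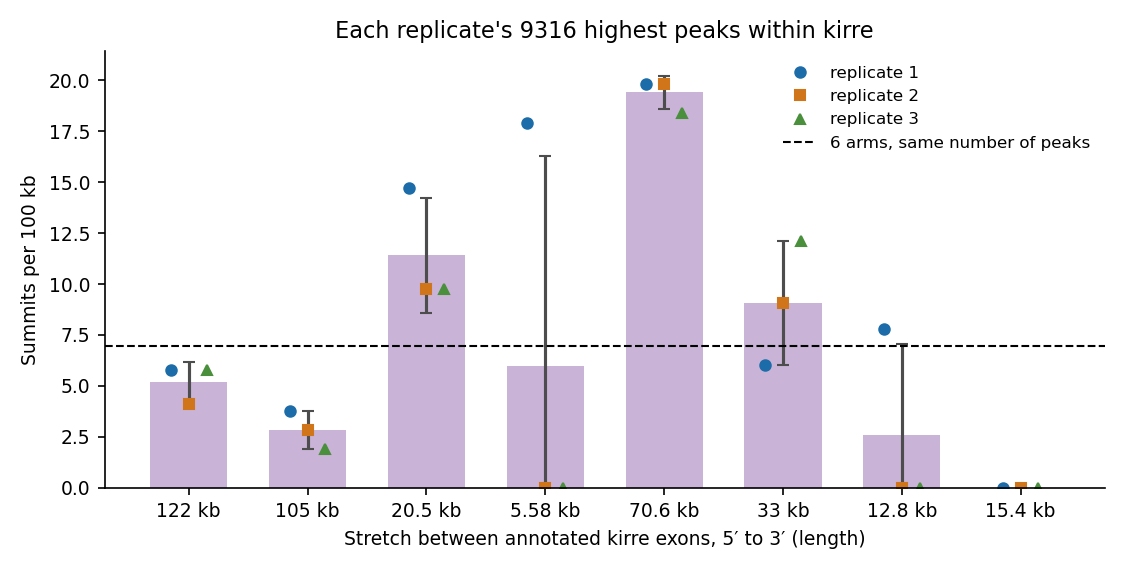
Summits per 100 kb among each replicate's 9316 highest peaks in the 8 stretches of over 5 kb between kirre exons, from 5′ to 3′. Bars are means, error bars are SD over 3 replicates, points are replicates, and the dashed line is the mean of the 6 arms, 6.96. The 70.6 kb stretch has 19.8, 19.8 and 18.4, above the line in every replicate.

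Between the summit at 2790305 and that at 2978280 lay 188 kb with 4 optimal summits, the best of which ranked 5448. This sparse part holds 19 genes in full. By contrast, the 70.6 kb stretch and the 33 kb one after it together held 18 summits, 56.2% of the locus, over 89.2 kb from the first to the last. The median spacing of neighbouring summits was 5552 bp in the locus and 4061 bp over the optimal list. The closest pair, 3025043 and 3025715, was 672 bp apart. The widest gaps were 70.8, 42.5, 40.5 and 37.3 kb. The densest 50 kb held 13 summits, from 3007988 to 3055979, and of 2674 windows tiled over the arms 2.92% held as many or more, with 25 the most in any. The 13 came from a window slid to its densest place, which favours the locus in that comparison.

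The strongest summit of the locus was at 3053484, in the 70.6 kb stretch and 13998 bp from the nearest TSS, that of CG4116. It had a signal of 653, an optimal rank of 409, and ranks of 304, 719 and 336 in replicates 1, 2 and 3. The next, at 3046180, had a signal of 590 and ranked 634, 404 and 511. It was the best of the locus in replicate 2, while the first was the best in the others. Of the 10 strongest, 6 were in the same stretch.

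Among these, the summit at 3018862 had a signal of 490 and ranked 751, 919 and 767 in replicates 1, 2 and 3. The summit at 3045001 had a signal of 401 and ranked 2490, 685 and 966, the widest relative spread in the locus. Its SD of 971 was 70.4% of its mean rank. The summit at 3047932 ranked 1398, 1066 and 1513, and that at 3041216 ranked 1265, 1592 and 1545. A single strong summit stood farther 3′, at 3097224, 2326 bp before the kirre-RC start, with a signal of 439 and ranks of 985, 905 and 1164. All 10 of the strongest were among the best 9316 peaks of all 3 replicates.

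The dense stretch also held summits of middling and low strength. Its summit at 3016618 had a signal of 295 and ranked 1765, 1897 and 2412 in replicates 1, 2 and 3, and that at 3039951 had a signal of 306 and ranked 1573, 2736 and 1781. The summit at 3060302, with a signal of 186, ranked 3818, 4126 and 4337. These were inside the best 5000 of every replicate.

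Farther down were 3025043 with ranks of 6421, 3691 and 5495, its close neighbour 3025715 with 6996, 7787 and 8300, and 3055979 with 5352, 6809 and 6671 in replicates 1, 2 and 3. The summit at 3010163 ranked 7568, 8394 and 6813. At the 5′ edge of the stretch, 3007988 ranked 7866, 3686 and 11623, so replicate 3 placed it outside its best 9316 and replicate 2 far inside. Of the 14 optimal summits of the stretch, this was the only one not in the best 9316 of all 3 replicates.

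Elsewhere in kirre, the summit at 2985394, 3657 bp before the kirre-RG start, had a signal of 265 and ranked 2004, 2723 and 2679 in replicates 1, 2 and 3. The summit at 3086061 had a signal of 209 and ranked 3666, 2987 and 3908, and that at 2788814 in CG32795 ranked 3995, 4328 and 3509. Replicates placed each of these well inside their best 9316. The sparse part held weak peaks, with 9010, 10606 and 8850 at 2861147, with 6857, 8559 and 14271 at 2880877, and with 7838, 7930 and 8619 at 2907284. Of these last 3 summits, 2907284 was inside the best 9316 of every replicate. The summit at 3073720 ranked 11794, 9358 and 5105, inside the best 9316 of replicate 3 alone.

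The place of the locus summits in the optimal list depended on how many of the best peaks were counted. Among the best 500 there was 1 of the 32, or 3.12% (0.554 to 15.7), against 5.37% of all optimal peaks. Of the 32 summits, 7 were among the best 1000, or 21.9% (11 to 38.8), against 10.7% of all optimal peaks. Among the best 2000 there were 12, or 37.5% (22.9 to 54.7), against 21.5%. In the best 4658 there were 18, or 56.2%, against 50% by construction. The median rank was 3842 in the locus and 4658 in the list. The share of the locus was thus below that of the list in the best 500 and above it in the best 1000 and 2000, and these differences were not tested. The highest optimal signal in the locus was 653, while the highest in the genome was 3147.

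Replicates gave similar orders within the locus. Of 32 summits, 23 were in the best 9316 peaks of all 3 replicates, or 71.9% (54.6 to 84.4), against 58.6% of all optimal peaks. In the full relaxed lists 31 of 32, or 96.9% (84.3 to 99.4), had a match in all 3, against 86.9%. Those shares are no independent evidence, since the optimal list was selected for agreement between these replicates. Of the 16 best-ranked summits 16 were in the best 9316 of all 3 replicates, and of the 16 others 7 were. In the best lists of replicates 1, 2 and 3 there were 29, 28 and 28 of the 32, or 90.6%, 87.5% and 87.5%. Over all optimal peaks the shares were 80.2%, 79.6% and 84.6%. Across the 31 summits matched in every replicate, Spearman's rho of the ranks was 0.88 between replicates 1 and 2, 0.88 between 1 and 3, and 0.878 between 2 and 3. These points share the selection of the optimal list. The SD of a summit's rank over the replicates was 17.5% of its mean rank at the median, and lay between 5.25% and 70.4%.

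**Figure D3:**
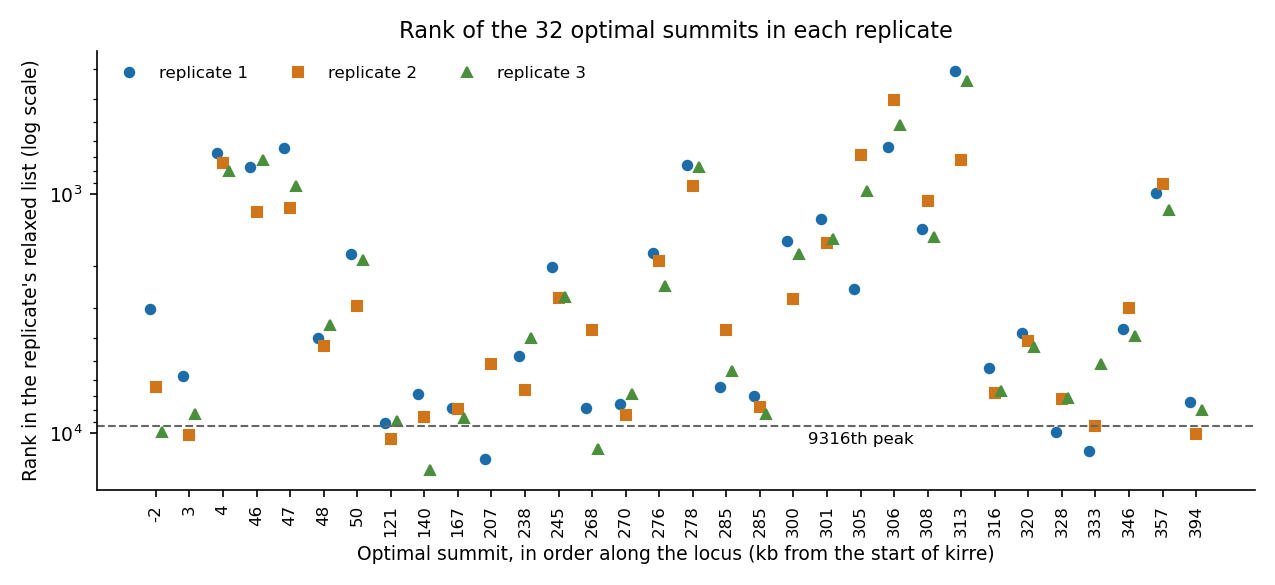
Rank of each of the 32 optimal summits of the locus in the relaxed list of replicates 1, 2 and 3 (log scale, best at the top), in order along the locus and labelled in kb from the start of kirre. The dashed line is the 9316th peak. The spread of the 3 ranks of a summit differs along the locus at strong and weak summits alike, from 5.25% to 70.4% of the mean rank (SD). The summit at 207 kb has no point for replicate 3.

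Beside the number of peaks, the whole relaxed lists were compared. The locus held 120, 118 and 117 relaxed peaks in replicates 1, 2 and 3, which is 1.29, 1.27 and 1.26 times the genome mean per base. Over each replicate's 9316 highest peaks it held 35, 29 and 29, or 1.21, 1.01 and 1.01 times. So the excess over this mean was small and was larger among weak peaks than among strong ones in each replicate. The mean was taken over the full length of the arms, 134 Mb, with stretches free of optimal summits in it. The genes Myo81F of 1966 kb and Pzl of 709 kb, for example, held 0. Whether the locus exceeds the parts of the arms that do hold peaks was not tested. The same mean served for the other ratios to the genome. In the pooled lists the ratio was 1.11 for optimal peaks, 7.73 against 6.96 per 100 kb, and 1.44 for relaxed ones, 32.4 against 22.4. Optimal peaks on the whole X chromosome stood at 7.02 per 100 kb.

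Of the 134 pooled relaxed peaks in the locus, 32 were optimal, or 23.9% (17.5 to 31.8), against 31.1% of all pooled peaks. With a q value under 0.01 there were 46, or 34.3% (26.8 to 42.7), against 45.6%. The locus was thus richer in weak peaks than the genome, and whether these are background was not tested. The weakest optimal peak, at 2861147, had a signal of 97 and rank 8658. Its closest rival outside the list, at 3136549 in the N gene, had a signal of 88.2 and rank 9491, with ranks of 13723, 8966 and 9590 in replicates 1, 2 and 3. At the edges of the locus, the outermost summits were those at 2738876 and 3134530. The nearest optimal summits beyond it were at 2708356, 22028 bp outside, and at 3147158, 2626 bp outside.

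Words for Sox proteins at the summits of the locus were about as frequent as at all summits. In windows of 50 bp to each side, ACAAT or ACAAAG, on either strand, was found in 12 of 32, or 37.5% (22.9 to 54.7), against 37.2% of all 9316 optimal windows. ACAAT was in 31.2% of locus windows and 28.4% of all windows. ACAAAG was in 6.25% of locus windows and 11.8% of all windows. The longer AACAAT, which holds ACAAT, was in 7 of 32 locus windows, or 21.9% (11 to 38.8). It was in 12.2% of all windows, which that interval includes. AACAAAG, which holds ACAAAG, was in 0 of 32, against 6.39%. AGGTCA, a nuclear receptor half-site, was in 0 of 32 against 2.02%. GAGAG was in 0 of 32 against 12.3%, the E-box CACGTG in 0 against 0.902% and TATCGATA in 0 against 1.73%. A count of 0 in 32 windows has an upper Wilson bound of 10.7%, above each of these shares except that of GAGAG. In 64 side windows, set 1 kb away from the locus summits on each side, ACAAT or ACAAAG was in 25%. In the side windows of all optimal summits it was in 30.5%.

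The 10 strongest summits held ACAAT or ACAAAG in 3 windows of 10, and the other 22 in 9. Those at promoters held one in 2 of 6 and those in introns in 10 of 26, or 38.5% (22.4 to 57.5), against 39.3% of all intronic optimal windows. GC content was 31.2% ± 7.73 (SD, n = 32 windows) in the locus and 36.6% ± 9.8 over all optimal windows, and these words are themselves rich in A and T. In side windows of the locus it was 42.1% ± 8.38.

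Next to other long genes, kirre was first by count and not by density. Its 31 optimal summits were the most in the span of any protein-coding gene, ahead of 28 in Eip75B, an ecdysone-induced nuclear receptor gene, and 25 in sbb. Of the 31 in kirre, 5 were within 500 bp of a start of another gene and 0 within 500 bp of a kirre start. The span of CG32795 held 4 of the 31. The lead of kirre in count thus rests on including summits in or at other genes. Among 83 protein-coding genes of 100 kb or more, kirre was the 5th longest. Per 100 kb it had 7.87, 1.13 times the genome mean, and was in place 15. The median of the 83 was 1.79 and the highest was 24.6, in Eip75B. Only 56 of the 83 held any optimal summit, which lowers that median. The genes longer than kirre, Myo81F, Pzl, lovit and CG17684, held 0 each. Whether peaks could be called in these genes as well as in kirre was not tested. The next above kirre by density were SKIP with 10.5, shep with 9.01 and pum with 8.17. Next below came Antp with 7.77, mamo with 7.62 and fru with 7.62. The nearness of these values says nothing of shared function or control. Antp encodes a homeotic protein, pum an RNA-binding repressor of translation and fru a transcription factor of male behaviour.

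Of the 83 long genes, 21 held at least 10 optimal summits, and 4 of those had none within 500 bp of a TSS of their own. These were kirre with 31, CG1677 with 22, SKIP with 17 and luna with 10. Over all 83 long genes, 51 had none there, or 61.4%, among them Antp with 8 summits in its span. Of the 56 with at least 1 optimal summit in the span 25 had none there, or 44.6%, and of the 35 with at least 5 there were 10, or 28.6%. The shares at these counts of summits were not compared by a test.

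**Figure D4:**
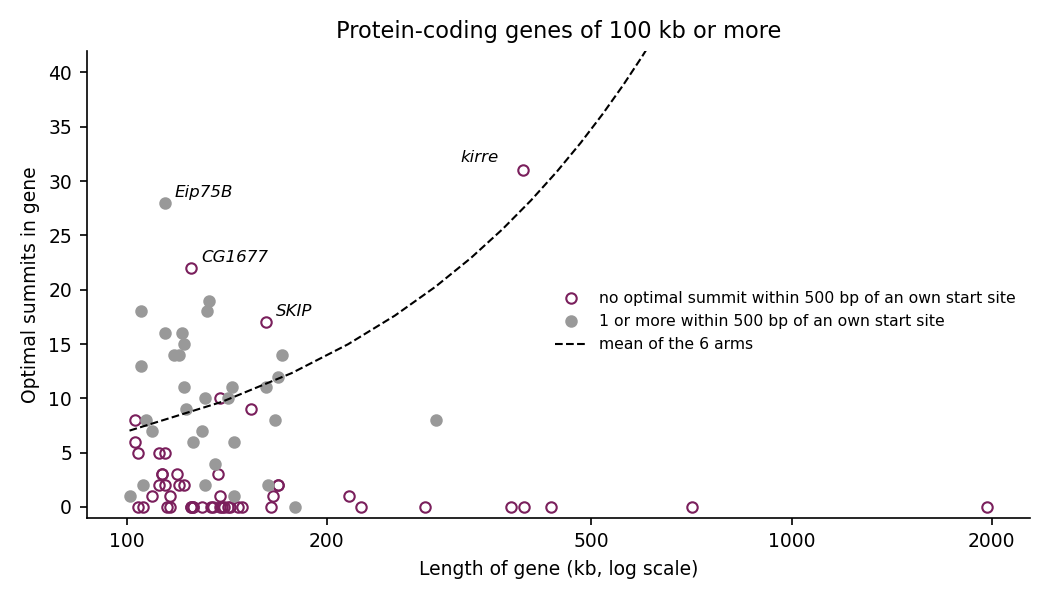
Optimal summits in the span of each of 83 protein-coding genes of 100 kb or more against gene length in kb (log scale). Open circles have no optimal summit within 500 bp of an own start, filled circles have 1 or more, and the dashed line is the mean of the 6 arms. kirre, with 31 in 394 kb, is highest by count and just above the line.

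Genes that act with kirre and rst were read from a list of 40, with kirre and rst in it and 38 others. An optimal summit in the span plus 1 kb was found for 29 of the 38, or 76.3% (60.8 to 87), against 40.2% of all protein-coding genes. Genes of the list are long, with a median of 7.58 kb against 2.17 kb. Among genes of 5 to 50 kb, 17 of 21, or 81% (60 to 92.3), had one, against 61.2% of protein-coding genes of that length. The list was put together with results of these data known, and no test was made.

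The partner receptors had no optimal peaks. sns (57.6 kb) and hbs (30.7 kb), the partners on fusion-competent myoblasts, had 0 each, like rst. Thus kirre was the only one of these 4 immunoglobulin genes with an optimal summit. It is also by far the longest, at 394 kb, and none of its summits was within 500 bp of its own starts. For sns and hbs, 0 of 2 has an upper Wilson bound of 65.8%. That is above the 61.2% of protein-coding genes of 5 to 50 kb with a summit, a range that sns slightly exceeds. Of 27 genes of fusion and its actin machinery, 20 had one, or 74.1% (55.3 to 86.8), against 40.2% of all protein-coding genes. The best ranked was mbc, a guanine nucleotide exchange factor for Rac, with rank 491 and 355, 794 and 545 in replicates 1, 2 and 3, 218 bp from its TSS. Src64B, a tyrosine kinase, followed with 674, and 1234, 380 and 742 in the replicates. Both were of the order of the 7 strongest summits of the locus, whose ranks in the replicates lay between 304 and 1190.

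The junction group of 9 genes ran from Mec2 at 2.16 kb to pyd at 105 kb, and its share was not matched for length. All 9 had an optimal summit (70.1% to 100%), against 40.2% of all protein-coding genes and 61.2% of those of 5 to 50 kb. N had the best, with rank 592 at 3162553, outside the locus, and 553, 478 and 826 in replicates 1, 2 and 3. pyd, the ZO-1 scaffold that binds the cytoplasmic tail of Rst and Kirre, had rank 694, and 608, 756 and 762. Egfr, the receptor of epidermal growth factor, had rank 826, and 901, 855 and 891. Among these genes, the replicate ranks lay closest together in Egfr and farthest apart in N. With none were Crk and Ced-12, adaptors of the Rac pathway, and the small GTPase gene Arf51F. SCAR and Sra-1, of the SCAR complex that promotes actin branching by Arp2 and Arp3, had none either. The other genes of that complex in the list had one, with best ranks of 1343 in Hem, 2415 in Abi and 3169 in HSPC300. Arp2 and Arp3 also had one, with best ranks of 2387 and 1637. There was also none for sing, a membrane protein of fusion, or lmd, a transcription factor of fusion-competent myoblasts. In all, 9 of 38 had no optimal summit.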

How the data were processed

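Sox14-GFP ChIP-seq of 3 replicates of whole white prepupae was used. The authors deposited peak lists for builds dm6 and dm3, and only the dm6 lists were used. Each peak has the authors' signal and the authors' −log10 q value, per the deposited column layout. The authors' optimal list was thresholded on reproducibility between replicates and the relaxed lists entered that step, per the deposited text descriptions. The aligner, peak caller and threshold were not given in the sources used here. Depth is unknown.

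Summits were the peak start plus the deposited offset. Peak positions fitted Release 6 arm lengths, and Ensembl release 115 genes (BDGP6.54) and RefSeq sequence of Release 6 were used. Ranks within a list followed signal, and a summit matched another list's where the distance was at most 100 bp. A promoter was within 500 bp of any TSS except those of transposable elements. The scripts ran in Python 3.11.15 with numpy 2.4.6, pandas 2.3.3, scipy 1.17.1 and matplotlib 3.10.9 and were tested on simulated data. In the list of 40 genes, Arf51F and Sra-1 were found as Arf6 and Cyfip through RefSeq synonyms.

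Members, gene lists, words and alternatives were chosen with earlier results of these data known. Named genes were kirre, rst, genes of the locus with an optimal summit in the span or at a start, genes nested in kirre, the 3 long genes on each side of kirre by density, and of the list the 5 best ranked and those without. Named summits were the 10 strongest, those at promoters, those at the edges and at the threshold. Some further genes and summits were named after their values were seen, as were the sequences shown, and so were the gaps, the closest pair, the sparse part and the long genes without a summit at a start of their own.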

Additional observations from a re-analysis of the deposited data

How the results depend on the processing

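Of 40 alternatives, 33 stayed within the bounds set for them. The bounds are not given here and were wide. Within them, the locus count was 46 for pooled relaxed peaks with q under 0.01. It was 23 for optimal peaks in the best lists of all 3 replicates. For peaks with q under 0.01 the density of kirre was 1.07 times the genome mean and its place was 20. With the better-ranked 4658 optimal peaks these were 1.31 and 12. The place of kirre was 21 with 10 kb added to the spans, against 15 in the main setting. The count of 32 optimal summits was 18 with the better-ranked 4658 peaks of the list. The share in all 3 replicates, 71.9%, was 96.9% with full relaxed lists, against 86.9% of all optimal peaks. It was 53.1% with the 5000 highest peaks of each replicate. With 250 bp as the limit 3 promoter summits were left of 6. For these last settings no share over all optimal peaks is given, so they describe the locus alone. Windows of 25 and 100 bp to each side held ACAAT or ACAAAG in 15.6% and 71.9% of locus summits, against 21% and 59.2% of all optimal summits. With 10 kb added to each gene, 89.5% of the listed genes had an optimal summit, against 74.4% of protein-coding genes.

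Leaving out each replicate in turn kept the optimal peaks found in the best lists of both others, a smaller and stricter set. The count was then 24 to 26 and the density of kirre 1.26 to 1.42 times the genome mean. Without replicates 1, 2 and 3, 75%, 81.2% and 81.2% of the locus summits were found in both others. Over the whole optimal list 6493, 6546 and 5982 of 9316 were. The place of kirre was 13 to 14 in these sets. The share of windows with a word was 26.9% to 34.6%, against 37.8% to 38.7% of all windows of these sets. The share of listed genes was 71.1% to 73.7%, against 30.8% to 33.8% of protein-coding genes. No paired analysis was possible because there was 1 group.

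Peak lists without reads, without a control library and from whole animals limit all values here. A weak peak cannot be told from background, and a peak cannot be tied to a gene or tissue.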
